A study of Mus musculus with 8 samples.

Results

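The 68 genes described here encode the exocytosis and SNARE machinery, the proteins that bring a secretory granule to the plasma membrane and fuse it there. They were taken by gene family, with a rule on the symbols, although with earlier results of these data known: the syntaxins (Stx), the SNAP proteins (Snap23, Snap25, Snap29, Snap47 and Snap91), the vesicle-associated membrane proteins (Vamp), the syntaxin-binding proteins (Stxbp), the synaptotagmins (Syt), the complexins (Cplx), the Munc13 proteins (Unc13), the RIM proteins (Rims) and the Rab3 GTPases. They are 68 of the 55536 genes in the deposited count table. Snap91 carries the symbol but encodes a clathrin adaptor of endocytosis and is not a SNARE. It was kept because the rule is by name.

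The study measured polyadenylated RNA in MIN6 cells, a mouse insulinoma line used as a model of the pancreatic beta cell. Cells of WT genotype were transfected for 48 h with Lipofectamine 3000, carrying either the pcDNA 3 empty vector (control, 4 libraries) or the plasmid pGloMyc-Klf4 (Klf4, 4 libraries). KLF4 is a zinc-finger transcription factor of epithelia and of pluripotent cells. Replicates 1 and 2 of each group are in batch 1 and replicates 3 and 4 in batch 2. The backbones of the plasmids differ by name, so the backbone and the Klf4 insert changed together and cannot be told apart. The labels call the 4 libraries of a group biological replicates without saying that the cultures were separate, so the p-values measure the spread between these libraries. The extraction text speaks of islets although every sample is named MIN6. In a transiently transfected culture of this kind fewer expressing cells and less RNA per cell cannot be told apart.

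The targeted gene was read first. Klf4 (chr4:55527143-55532466, minus strand, GRCm38) had 2014, 2060, 1929 and 1743 counts in control replicates 1 to 4 and 251826, 205171, 257862 and 308667 in the Klf4 libraries. Its mean level rose from 40.1 ± 3.11 to 5040 ± 567 CPM (the count scaled to a common library total; SD, n = 4 in each group), a difference of 6.97 on the log2 scale (SE 0.07). The libraries held 45417853 to 52731176 counts. Between 24509 and 25446 genes had a count in the control libraries and between 26414 and 27216 in the Klf4 libraries. Beta-cell identity was read from 8 marker genes (Ins1, Ins2, Iapp, Pdx1, Mafa, Slc2a2, G6pc2 and Nkx6-1). Their summed level was 25118 to 31865 CPM in control and 23466 to 32148 CPM in Klf4 libraries, and 4 of the 8 fell (G6pc2, Pdx1, Iapp and Mafa). The summed keratinocyte markers moved from 3.82 to 4.24 CPM in control to 21.6 to 33.2 CPM in Klf4 libraries, nearly all of it Krt14. Summed neuronal markers stood at 473 to 514 and 472 to 525 CPM, with 1 of 5 (Rbfox3) higher. That list shares Snap91 with the members. The summed alpha-cell markers stood at 589 to 710 and 603 to 705 CPM. Fibroblast markers stood at 1.47 to 2.51 and 4.20 to 5.38 CPM (2 of 3 higher), endothelial markers at 3.82 to 4.15 and 4.46 to 4.92 CPM (1 of 2 higher), and leukocyte markers at 5.92 to 6.53 and 5.55 to 7.29 CPM (0 of 3 higher). The 3 delta- and PP-cell markers were at 0 to 0.319 CPM in sum in control and 0.177 to 0.322 CPM in Klf4 libraries and were not tested. The part of these marker shifts in the results below was not tested.

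Membrane fusion in regulated secretion is driven by SNARE proteins. A vesicle SNARE such as VAMP2 zips together with syntaxin-1 and SNAP-25 of the plasma membrane into a tight helical bundle that pulls the membranes together. Sec1/Munc18 proteins clasp the syntaxin and the growing bundle, Munc13 proteins open syntaxin to prime the granule, RIM proteins and Rab3 GTPases tether granules near calcium channels, complexins hold the partly zipped bundle, and synaptotagmins sense the calcium that triggers release. In beta cells this machinery carries out glucose-stimulated insulin release.

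Expressed per kilobase of exon, so that genes can be roughly compared, the most abundant members in control cells were those of neuroendocrine secretion. The length is that of all annotated exons merged and not of the transcripts expressed, so the order also depends on the annotation. Syt13, a synaptotagmin without calcium binding, led at 204 ± 11.7 CPM per kb (SD, n = 4). Also among the most abundant were the complexin Cplx2 at 124 ± 10.5, Syt4 at 94.7 ± 4.47, the vesicle SNARE Vamp2 at 77.6 ± 0.945, the high-affinity calcium sensor Syt7 at 68.4 ± 1.36 and the plasma-membrane SNARE Snap25 at 51.4 ± 2.54 CPM per kb. Snap25, Syt11 (50.9 ± 2.07) and Rab3a (49.4 ± 4.01) lay within their spread of each other. Stx1a stood far lower at 9.41 ± 0.762 CPM per kb, close to Vamp8 at 9.08 ± 0.655, and these neighbours did not differ beyond their spread either. At the low end of the tested members, Unc13d stood at 0.399 ± 0.0669 and Rims1 at 0.0221 ± 0.0194 CPM per kb. The members together took 0.586% to 0.596% of all counts in each of the 8 libraries, in control and Klf4 alike.

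Of the 68 members, 58 had enough counts to be tested and 28 of these differed between the groups (edgeR quasi-likelihood test with a batch term, Benjamini-Hochberg adjusted p under 0.05 over 18266 genes). That is 48.3%, against 36.6% of all genes tested. The share of all genes called rose with their level, and the shares by level are given below. Of the 28, 18 rose and 10 fell, that is 31% and 17.2% of the members tested, against 21.1% and 15.5% of all genes. The median log2 fold change of the 58 was 0.01 and that of all genes -0.01. The sign of the members' median was not stable: it was -0.04 without control replicate 1 and 0.04 with scaling on genes of high expression. Large changes were few. A rise of 1 or more on the log2 scale was called in 2 members, Rims1 and Unc13d (8.5% of all genes), a rise of 0.5 or more in 5 (12.1% of all genes), and a fall of 0.5 or more in none (0.619% of all genes). Among all genes, 989 of the 1553 rises of 1 or more were at an average log2 CPM under 1. Only 4 of the 58 members lay there, so these shares were not matched for level. The 10 falls were small, and 9 of them were under 0.25 on the log2 scale. Small falls were usual in these data, with 2356 of the 2828 falls of all genes under 0.25. An unadjusted p under 0.05 (edgeR) was reached by 34 members. The share of all genes was not counted at that threshold, so no comparison is drawn from it. In 19 of the 58 the groups did not overlap, with all Klf4 libraries above all controls in 15 and below in 4, which is 32.8% against 26.1% of all genes. Scaling on genes of high expression, a choice made in the re-analysis, shifted the median of all genes by 0.035 on the log2 scale and moved the share of calls that were rises from 64.3% to 75% in the members and from 57.7% to 72.8% in all genes. No called member changed sign under it. Without the batch term 19 of the 28 were called, and the calls lost were those of Vamp4, Syt14, Snap25, Rims3, Stx4a, Stxbp2, Cplx2, Rab3c and Syt4.

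The split between rises and falls differed by level of expression, among the members and among all genes. Of the 14 members at 20 or more CPM per kb in control, 2 rose (Syt7 and Unc13a), 5 fell (Cplx2, Rab3a, Snap25, Syt4 and Vamp2) and 7 did not pass the test. Of the 44 tested members under that level, 16 rose, 5 fell and 23 did not pass. Among members with an average log2 CPM of 6 or more, 3 of 22 rose and 6 fell, while 636 of all 4006 genes at that level rose and 1258 fell. At an average log2 CPM of 4 to 6, 9 of 22 members rose and 4 fell, beside 994 and 1080 of 4903 genes. At 1 to 4, 5 of 10 members rose and none fell, beside 1035 and 389 of 3961 genes. Under 1, 1 of 4 members rose (Rims1) and none fell, beside 1191 and 101 of 5396 genes. Called in either direction were 40.9% of members and 47.3% of all genes at 6 or more, and 59.1% and 42.3% at 4 to 6. At 1 to 4 these shares were 50% and 36%, and under 1 they were 25% and 23.9%.

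**Figure D1:**
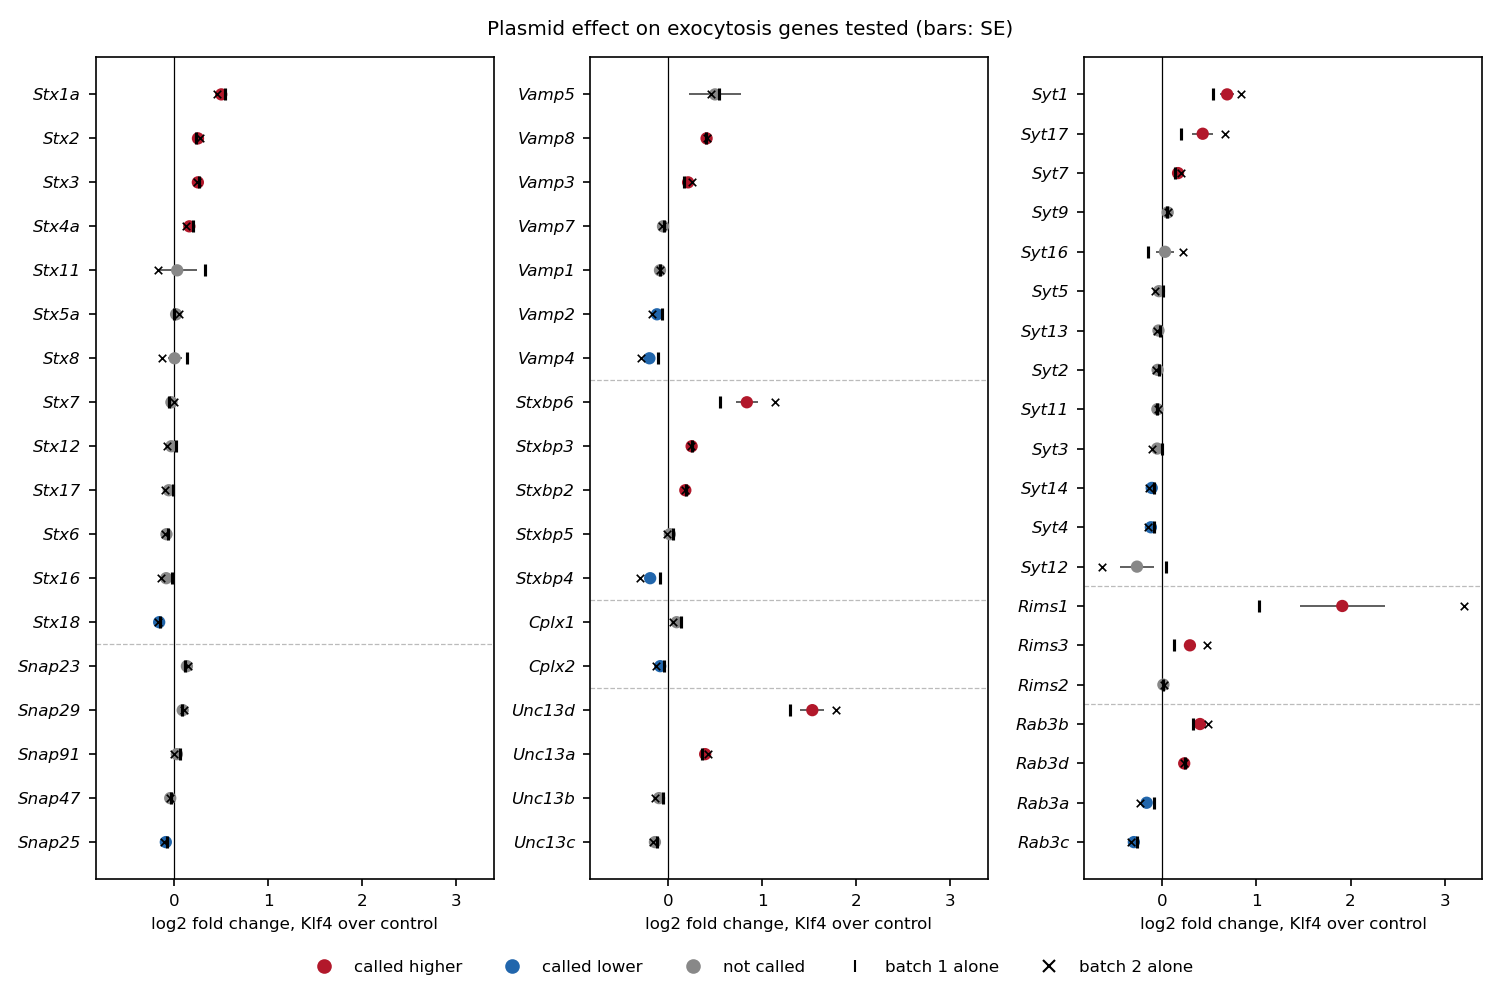
Log2 fold change, Klf4 over control, with its standard error (horizontal bars) for tested exocytosis genes, grouped by family; colour marks genes called higher, called lower or not called by edgeR, and black ticks and crosses give batch 1 and batch 2 alone. Most values lie within 0.5 of 0, and Rims1 (1.91) and Unc13d (1.53) lie farthest to the right.

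**Figure D2:**
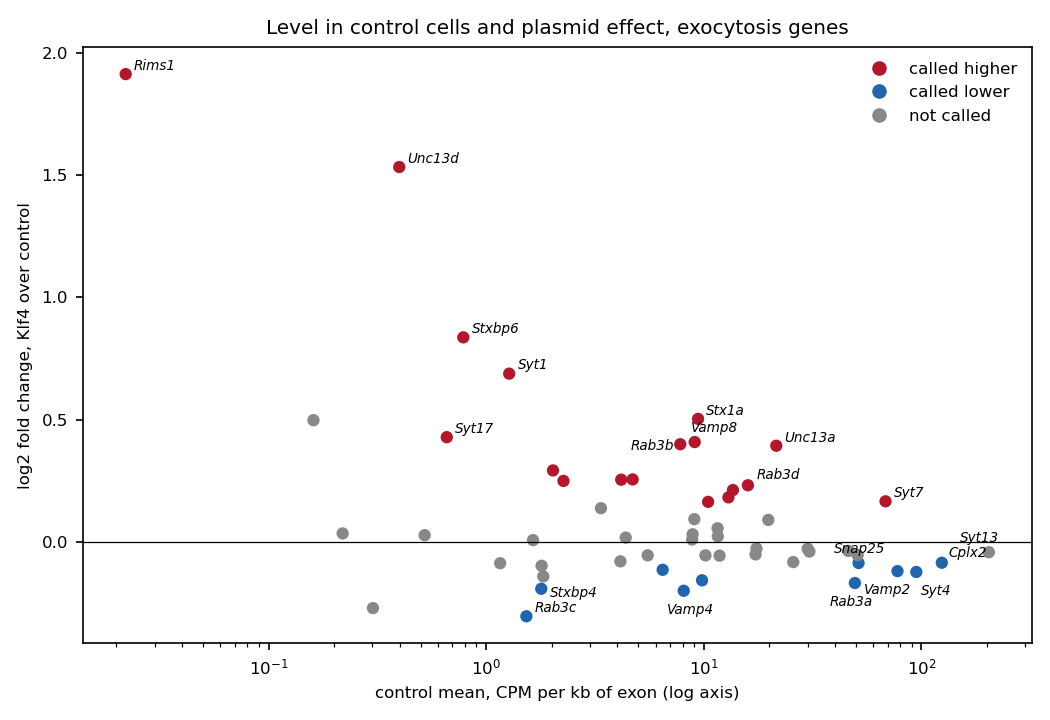
Level in control cells (CPM per kb of exon, log axis) against the log2 fold change, Klf4 over control, of tested exocytosis genes. Of the 14 genes at 20 or more CPM per kb, 2 were called higher (Unc13a at 0.39 and Syt7 at 0.17) and 5 lower, and the rises above 0.5 are all in genes under 20 CPM per kb.

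Promoters are shown for 5 members that passed the test and whose 250 bases before the start lie clear of annotated exons, with 1 listed start: Rims1, Stx1a and Unc13a, which rose most among such members, and Rab3c and Syt14, the 2 that fell. KLF4 and its relatives bind GC-rich boxes of the CACCC type, so CACCC was searched on both strands (GGGTG on the strand shown). The sequences are from RefSeq (GRCm38.p6), written 5′ to 3′ on the gene's strand, with the last base next to the start and the matches in capitals. Rims1 lies at chr1:22806159-22806408 (minus), Stx1a at chr5:135023232-135023481 (plus), Unc13a at chr8:71671758-71672007 (minus), Rab3c at chr13:110280207-110280456 (minus) and Syt14 at chr1:193035776-193036025 (minus).
Rims1: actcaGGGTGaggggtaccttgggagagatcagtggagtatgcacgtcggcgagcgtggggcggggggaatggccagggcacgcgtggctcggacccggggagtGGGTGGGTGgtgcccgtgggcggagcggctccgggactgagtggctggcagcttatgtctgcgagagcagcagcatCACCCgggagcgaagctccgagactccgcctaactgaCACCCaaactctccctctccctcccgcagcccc
Stx1a: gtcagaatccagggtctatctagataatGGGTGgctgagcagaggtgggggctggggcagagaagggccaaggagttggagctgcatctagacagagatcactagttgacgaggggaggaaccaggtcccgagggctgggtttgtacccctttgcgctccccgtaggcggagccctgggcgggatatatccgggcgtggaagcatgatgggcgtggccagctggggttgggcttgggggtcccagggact
Unc13a: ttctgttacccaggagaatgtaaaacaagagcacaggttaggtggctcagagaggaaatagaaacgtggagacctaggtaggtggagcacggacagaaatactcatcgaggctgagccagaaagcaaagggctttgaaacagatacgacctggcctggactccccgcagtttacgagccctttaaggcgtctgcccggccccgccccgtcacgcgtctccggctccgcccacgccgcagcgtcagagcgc
Rab3c: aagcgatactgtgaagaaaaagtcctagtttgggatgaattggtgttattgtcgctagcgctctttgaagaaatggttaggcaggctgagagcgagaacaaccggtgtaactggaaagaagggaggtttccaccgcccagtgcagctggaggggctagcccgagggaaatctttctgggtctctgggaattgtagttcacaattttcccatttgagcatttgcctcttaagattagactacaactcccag
Syt14: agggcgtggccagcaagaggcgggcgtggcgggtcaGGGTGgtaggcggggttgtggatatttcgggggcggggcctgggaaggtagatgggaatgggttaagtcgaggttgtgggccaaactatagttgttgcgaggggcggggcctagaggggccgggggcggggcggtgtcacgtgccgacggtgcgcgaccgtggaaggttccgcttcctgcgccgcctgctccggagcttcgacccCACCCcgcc
The Rims1 window holds 5 matches, the nearest 29 bases before the start, and the pair written as one run of capitals shares a base. The Stx1a window holds 1 match, 218 bases before the start, and the Syt14 window holds 2, the nearest 5 bases before it. Unc13a, with the smallest adjusted p of the members, has no match in its window, and neither has Rab3c.

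The promoter table held 52 of the 68 members, 10 of them with more than 1 start. Taking each gene's first start, CACCC was found in the window of 7 of 14 members that rose (50%), 5 of 7 that fell (71.4%) and 17 of 23 that did not pass the test (73.9%). Over all 27025 genes in the table the share was 51.3%. The longer form CCACACCC (GGGTGTGG on the other strand), which contains the short one, was found in 2 members that rose, Rab3d and Stx2, in none that fell, in 1 that did not pass, and in 3.19% of all genes. A match is a description of the letters and not of binding.

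Among the SNAREs of the plasma membrane the clearest rise was in Stx1a (chr5:135023482-135051100, plus strand), the syntaxin of regulated secretion, whose promoter is printed above. Its level was 25.02, 22.5, 27.4 and 25.4 CPM in control replicates 1 to 4 and 34.3, 35.1, 35.6 and 37.2 CPM in the Klf4 libraries. All 4 Klf4 libraries lay above all controls. The mean went from 25.1 ± 2.03 to 35.5 ± 1.24 CPM (SD, n = 4), a rise of 0.50 on the log2 scale (SE 0.05, edgeR adjusted p = 9.22e-09). The plasma-membrane syntaxins Stx2 and Stx3 rose, by 0.26 and 0.25 on the log2 scale (edgeR adjusted p = 0.000172 and 8.18e-05). Stx4a, the syntaxin that pairs with Stxbp3, stood at 24.05, 23.7, 27.4 and 23.8 CPM in control and 29.0, 26.0, 27.5 and 28.4 CPM in Klf4 libraries. These groups overlap through control replicate 3. Its log2 fold change was 0.16 (edgeR adjusted p = 0.0163), and the call was lost without control replicate 1, 2 or 4 or Klf4 replicate 1 (adjusted p 0.0609 to 0.12). Of 14 syntaxins tested, 5 passed, 4 of them higher. The 1 that fell was Stx18, a SNARE of the endoplasmic reticulum, at 46.4, 44.9, 44.5 and 44.5 CPM in control and 41.7, 40.7, 39.9 and 39.4 CPM in Klf4 libraries. Its groups do not overlap (log2 fold change -0.16, edgeR adjusted p = 0.00168). The syntaxins of the Golgi, endosomes and autophagosomes, Stx5a, Stx6, Stx7, Stx8, Stx12, Stx16 and Stx17, did not pass, with log2 fold changes from -0.08 to 0.02. Stx11, known from cytotoxic lymphocytes, did not pass either (0.04, SE 0.21).

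Snap25, the partner of syntaxin-1 in insulin granule fusion, fell slightly. It stood at 328.0, 345.0, 354.1 and 369.3 CPM in control and 323.0, 317.5, 340.5 and 334.2 CPM in Klf4 libraries, and these groups overlap. The change was -0.09 on the log2 scale (SE 0.03, edgeR adjusted p = 0.0142), and the call was lost without a batch term, with scaling on genes of high expression and with a correction for GC content and length. The widely expressed paralog Snap23 had 14.4, 15.9, 13.4 and 14.1 CPM in control and 16.5, 16.4, 15.3 and 15.3 CPM in Klf4 libraries, and its log2 fold change of 0.14 did not pass (edgeR adjusted p = 0.0588). Snap29, Snap47 and the clathrin adaptor gene Snap91 did not pass, at 0.09, -0.04 and 0.03 on the log2 scale.

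The vesicle SNAREs moved in both directions, with 2 higher and 2 lower of 7 tested. Vamp2 (chr11:69088490-69092384, plus strand), the vesicle SNARE of insulin granules, stood at 291.5, 293.7, 298.1 and 299.1 CPM in control and 277.9, 279.8, 258.7 and 272.6 CPM in Klf4 libraries. Every Klf4 library lay below every control. The mean went from 295.6 ± 3.60 to 272.3 ± 9.53 CPM, a change of -0.12 on the log2 scale (SE 0.03, edgeR adjusted p = 0.00169). Vamp8, or endobrevin, a SNARE of endosomes and of secretory granules in exocrine and blood cells, rose. It had 22.3, 22.1, 19.1 and 20.4 CPM in control and 29.7, 29.1, 25.7 and 26.8 CPM in Klf4 libraries, again with no overlap, and a log2 fold change of 0.41 in each batch (SE 0.05, edgeR adjusted p = 1.65e-07). Vamp3, or cellubrevin, the widely expressed relative of Vamp2, rose from 41.7, 40.6, 39.2 and 35.8 CPM to 48.6, 43.8, 45.8 and 43.7 CPM (0.21, edgeR adjusted p = 0.000526). Its groups do not overlap either. Vamp4, a SNARE of the trans-Golgi network, fell from 35.8, 33.8, 37.1 and 40.9 CPM to 30.6, 34.1, 34.0 and 29.7 CPM with overlapping groups (-0.20, edgeR adjusted p = 0.00577). Vamp1, Vamp5 and Vamp7 did not pass. Vamp5 had the same log2 fold change as Stx1a, 0.50, at under 1 CPM and with an SE of 0.28 (edgeR adjusted p = 0.174).

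**Figure D3:**
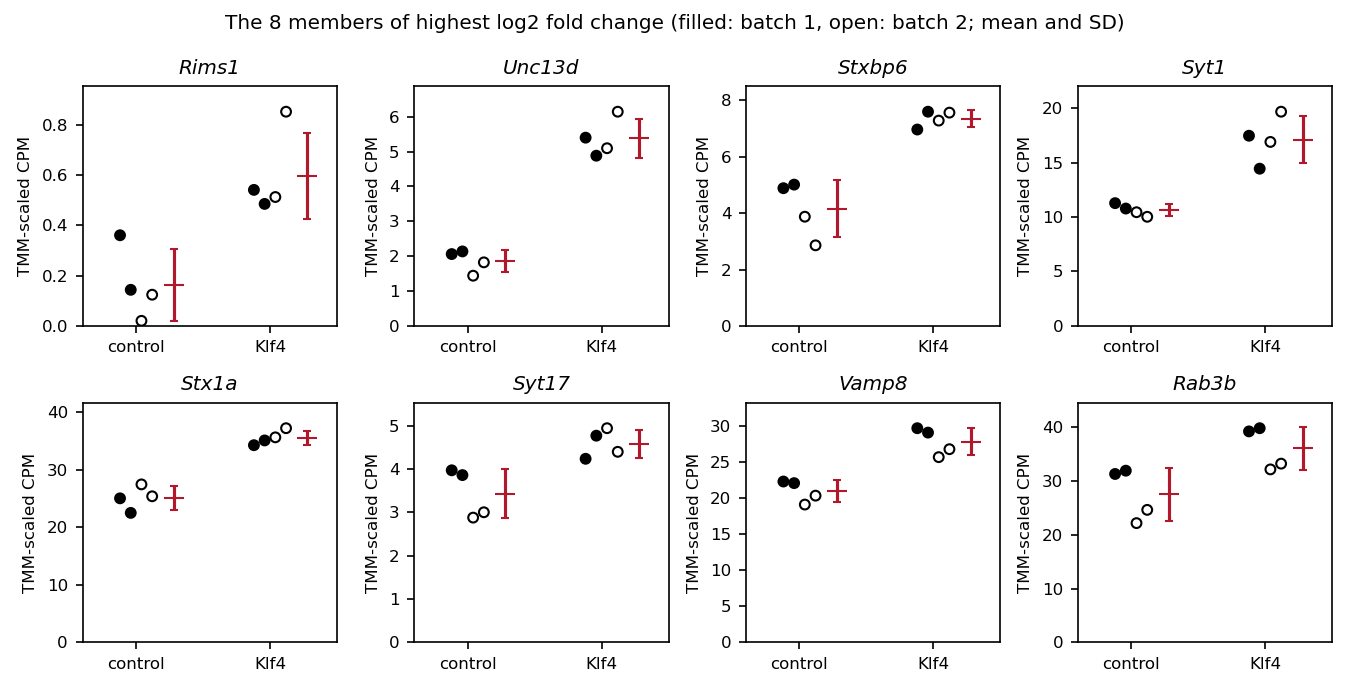
CPM in each library (circles, filled for batch 1 and open for batch 2) for the 8 exocytosis genes with the highest log2 fold change that passed the test, with the group mean and SD beside them. In all 8 every Klf4 library lies above every control, most narrowly in Rab3b (32.1 against 31.9 CPM).

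**Figure D4:**
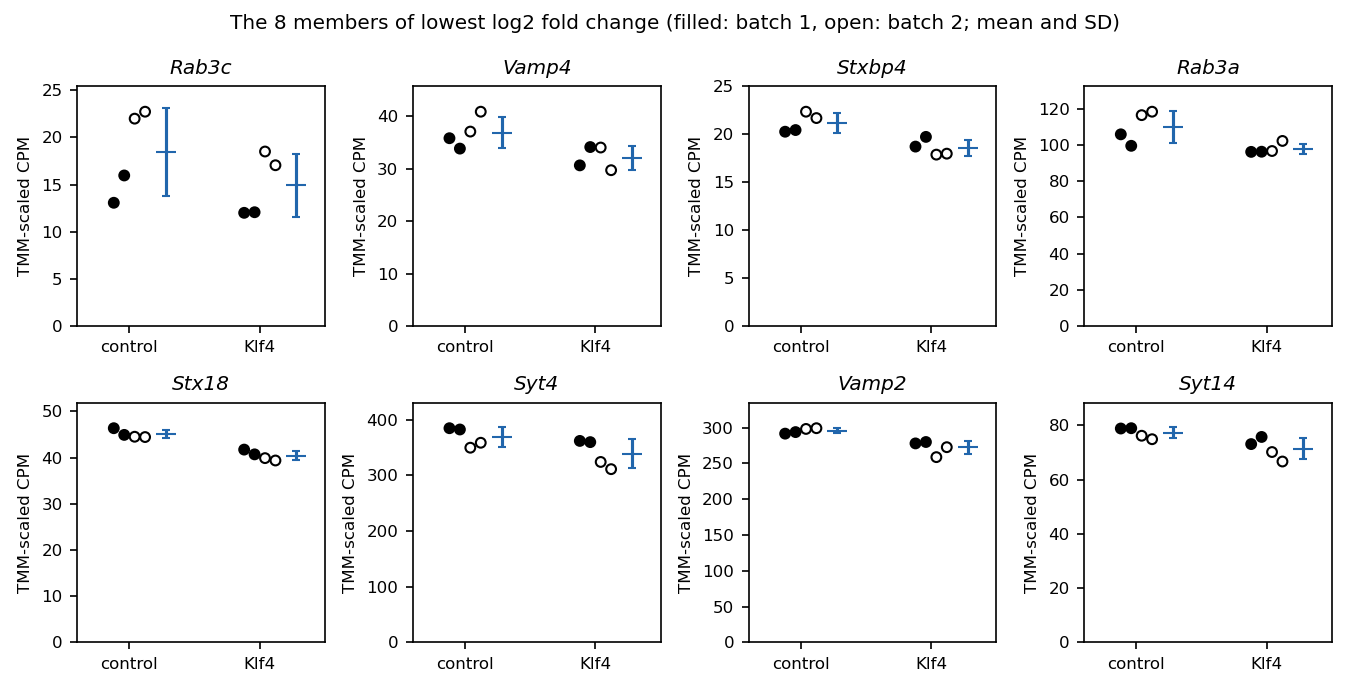
CPM in each library (circles, filled for batch 1 and open for batch 2) for the 8 exocytosis genes with the lowest log2 fold change that passed the test, with the group mean and SD beside them. The Klf4 libraries of Stxbp4, Stx18 and Vamp2 all lie below the controls, while those of Rab3c, Vamp4, Rab3a, Syt4 and Syt14 overlap with them.

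Among the syntaxin-binding proteins 3 of 6 tested members rose and 1 fell. The Munc18 genes Stxbp2 and Stxbp3, of wide expression, rose. Stxbp2 went from 58.4, 57.0, 50.8 and 49.7 CPM to 66.1, 65.2, 55.7 and 57.99 CPM (0.18, edgeR adjusted p = 0.000151). Its groups overlap over all libraries but not within a batch. Stxbp3, which binds syntaxin-4, rose by 0.25 (edgeR adjusted p = 0.00146). Stxbp4, also called Synip, another binder of syntaxin-4, fell from 20.3, 20.4, 22.4 and 21.7 CPM to 18.7, 19.7, 17.9 and 17.98 CPM (-0.19, edgeR adjusted p = 0.00728), with no overlap, and lost its call with a correction for GC content and length. Stxbp6 (chr12:44852484-45074709, minus strand) encodes amisyn, an inhibitor that takes the place of the vesicle SNARE in the bundle, and had the third largest rise of the members. It stood at 4.89, 5.01, 3.87 and 2.86 CPM in control and 6.97, 7.60, 7.28 and 7.57 CPM in Klf4 libraries. The Klf4 libraries lay close together and above every control, and the mean went from 4.16 ± 1.00 to 7.35 ± 0.294 CPM (log2 difference 0.84, SE 0.11, edgeR adjusted p = 3.08e-06). The other inhibitor of this kind, Stxbp5 (tomosyn), did not pass (0.02, edgeR adjusted p = 0.722). With a correction for GC content and length it was called higher (0.10, edgeR adjusted p = 0.0344). Its relative Stxbp5l had 8, 8, 7 and 4 counts in control and 11, 7, 13 and 16 in Klf4 libraries and was not tested.

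Of 13 synaptotagmins tested, 3 rose and 2 fell. Syt1 (chr10:108497650-109010982, minus strand), the fast calcium sensor of neurons, rose most. It had 11.3, 10.8, 10.4 and 10.03 CPM in control and 17.5, 14.4, 16.9 and 19.7 CPM in Klf4 libraries. No Klf4 library came near the controls, and the mean went from 10.6 ± 0.530 to 17.1 ± 2.15 CPM (log2 difference 0.69, SE 0.08, edgeR adjusted p = 1.54e-07). Syt7 (chr19:10389090-10453180, plus strand), the high-affinity sensor of insulin granules, stood at 506.0, 512.3, 526.1 and 503.3 CPM in control and 561.9, 555.1, 581.0 and 600.6 CPM in Klf4 libraries. These groups do not overlap. The rise was small, 0.17 on the log2 scale (SE 0.03, edgeR adjusted p = 2.05e-05), from 511.9 ± 10.2 to 574.7 ± 20.5 CPM. Syt17 had 3.97, 3.86, 2.88 and 3.00 CPM in control and 4.24, 4.77, 4.94 and 4.399 CPM in Klf4 libraries (0.43, SE 0.11, edgeR adjusted p = 0.00465), a narrow separation with no overlap.

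Syt4, an abundant synaptotagmin of dense-core granules, fell from 384.5, 382.2, 349.5 and 358.3 CPM to 361.6, 359.5, 323.9 and 311.0 CPM (-0.12, SE 0.03, edgeR adjusted p = 0.000738). The groups overlap across batches but not within them, since batch 2 was lower in both groups. Syt14 fell from 78.8, 78.9, 76.2 and 74.9 CPM to 73.1, 75.7, 70.1 and 66.7 CPM (-0.11, edgeR adjusted p = 0.00808), with an overlap through Klf4 replicate 2. That call was lost without a batch term, with scaling on genes of high expression and with a correction for GC content and length. Syt13, the most abundant member per kb, did not pass (816.0, 790.6, 743.0 and 719.4 CPM in control, 803.6, 776.3, 700.4 and 703.0 CPM in Klf4 libraries, -0.04, edgeR adjusted p = 0.203). Syt9, a fast sensor of insulin granules, did not pass either (0.06, edgeR adjusted p = 0.271). Syt2, Syt3, Syt5, Syt11, Syt12 and Syt16 did not pass, although all Klf4 libraries of Syt2 lay below its controls (-0.05, edgeR adjusted p = 0.181).

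The complexins clamp and assist the SNARE bundle. Cplx2, the second most abundant member per kb, stood at 560.9, 574.8, 668.9 and 640.9 CPM in control and 542.4, 560.6, 593.3 and 605.8 CPM in Klf4 libraries. Batch 2 was the higher batch in both groups, so the groups overlap over all libraries. The change was -0.08 on the log2 scale (SE 0.03, edgeR adjusted p = 0.0157), and the call was lost without control replicate 3 (adjusted p = 0.0517), without a batch term and with scaling on genes of high expression. Cplx1 had 33.3, 36.6, 54.2 and 49.1 CPM in control and 38.3, 38.6, 52.9 and 54.0 CPM in Klf4 libraries and did not pass (0.09, edgeR adjusted p = 0.107). For Cplx1 the batches differed by more than the plasmids, by 0.52 on the log2 scale.

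Of the 4 genes of Munc13 priming factors, 2 rose and the other two did not pass. Unc13a (chr8:71624417-71671757, minus strand) encodes Munc13-1, which opens syntaxin and primes granules in neurons and beta cells. It stood at 272.5, 268.1, 274.0 and 272.1 CPM in control and 335.8, 359.4, 361.5 and 371.2 CPM in Klf4 libraries. The controls lay within a few CPM of each other and every Klf4 library was far above them. The mean went from 271.7 ± 2.55 to 357.0 ± 15.0 CPM (log2 difference 0.39, SE 0.03, edgeR adjusted p = 7.94e-11). Unc13d (chr11:116062095-116077961, minus strand) encodes Munc13-4, the priming factor of secretory lysosomes in blood cells. It had 97, 104, 71 and 88 counts in control (2.06, 2.14, 1.44 and 1.82 CPM) and 279, 221, 268 and 324 counts in Klf4 libraries (5.40, 4.88, 5.10 and 6.14 CPM). Every Klf4 library lay far above every control. The mean went from 1.87 ± 0.313 to 5.38 ± 0.551 CPM (1.53, SE 0.13, edgeR adjusted p = 1.71e-09). Unc13b and Unc13c did not pass (-0.10 and -0.14, edgeR adjusted p = 0.0705 and 0.0646).

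RIM proteins link Rab3 on the granule to Munc13 and to calcium channels. Rims1 (chr1:22286251-22805994, minus strand), whose promoter is printed above, had 17, 7, 1 and 6 counts in control and 28, 22, 27 and 45 counts in Klf4 libraries, under 1 CPM in each. The Klf4 libraries lay above the controls, but the controls ranged widely. The change of 1.91 on the log2 scale (SE 0.45, edgeR adjusted p = 0.0017) was the largest of the members and had their largest SE. It was 2.61 without control replicate 1, and 1.03 in batch 1 against 3.21 in batch 2, and the gene was not tested under a minimum of 1 CPM in 4 libraries. Rims2, the main RIM gene of these cells, did not pass (89.5, 88.3, 98.9 and 90.5 CPM in control, 87.9, 90.8, 97.0 and 94.1 CPM in Klf4 libraries, 0.01, edgeR adjusted p = 0.849). Rims3, a short RIM without the Rab3-binding end, rose by 0.29 (edgeR adjusted p = 0.00141) from 18.3, 19.8, 13.6 and 12.9 CPM to 20.1, 21.4, 19.4 and 17.6 CPM. Its groups overlap over all libraries, and batch 1 was the higher batch in both groups.

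All 4 Rab3 genes passed the test, 2 in each direction. Rab3a, the GTPase best known from synaptic vesicles and insulin granules, fell from 105.9, 99.5, 116.5 and 118.4 CPM to 96.2, 96.2, 96.6 and 102.2 CPM (-0.17, SE 0.04, edgeR adjusted p = 0.000566). Only Klf4 replicate 4 reached into the control range. Rab3c, also a neuronal form, fell from 13.1, 16.0, 21.99 and 22.7 CPM to 11.998, 12.1, 18.5 and 17.0 CPM (-0.30, SE 0.06, edgeR adjusted p = 0.000431). This was the largest fall of the members, and the groups overlap because batch 2 was 0.59 higher on the log2 scale. Rab3b rose from 31.2, 31.9, 22.1 and 24.6 CPM to 39.1, 39.7, 32.1 and 33.2 CPM (0.40, SE 0.05, edgeR adjusted p = 3.49e-07). Rab3d, the form of exocrine zymogen granules, rose from 70.4, 67.7, 64.4 and 65.0 CPM to 83.1, 79.7, 75.9 and 75.4 CPM (0.23, SE 0.03, edgeR adjusted p = 3.24e-06). Neither of the rising forms overlapped between groups.

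Ratios of paralogs within a library do not depend on the scaling between libraries, and 11 pairs were compared, of which 9 are given, as ratios of CPM per kb with a two-sided exact permutation test over 70 relabellings of 4 against 4, where the smallest p is 0.0286. In 6 of the 9 the groups did not overlap (exact permutation p = 0.0286, or 0.0449 after Benjamini-Hochberg adjustment over the 11). The ratio Vamp8/Vamp2 went from 0.117 ± 0.00973 to 0.168 ± 0.00665 (SD, n = 4), a log2 difference of 0.53, Vamp2/Vamp3 from 5.73 ± 0.454 to 4.55 ± 0.282 (-0.33), and Stx4a/Stx1a from 1.11 ± 0.0563 to 0.880 ± 0.0512 (-0.34). Both Vamp8 and Vamp3 gained on Vamp2, with no overlap between the groups. Unc13d/Unc13a went from 0.0185 ± 0.00324 to 0.0407 ± 0.00393 (1.15) and Rab3d/Rab3a from 0.325 ± 0.0374 to 0.427 ± 0.0288 (0.40). Rims1/Rims2 went from 0.00255 ± 0.00227 to 0.00913 ± 0.00251 (2.43), with 1.16 in batch 1 and 3.71 in batch 2. The other pairs overlapped between groups over all libraries and did not pass: Snap23/Snap25 (0.23) and Syt7/Syt13 (0.21), each with adjusted p = 0.105 by the exact permutation test, and Cplx1/Cplx2 (0.18, adjusted p = 0.286). The relabellings took no account of batch. Within each batch every Klf4 ratio of these other pairs lay above every control ratio. All 9 differences had the same sign in both batches. Without any 1 of the Klf4 libraries the adjusted p of these 6 was 0.0524 or more. Their groups stay separate without a library, and the adjusted p also depends on the other pairs. Each of the 9 pairs holds a gene called above, so the ratios are not independent of those calls.

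**Figure D5:**
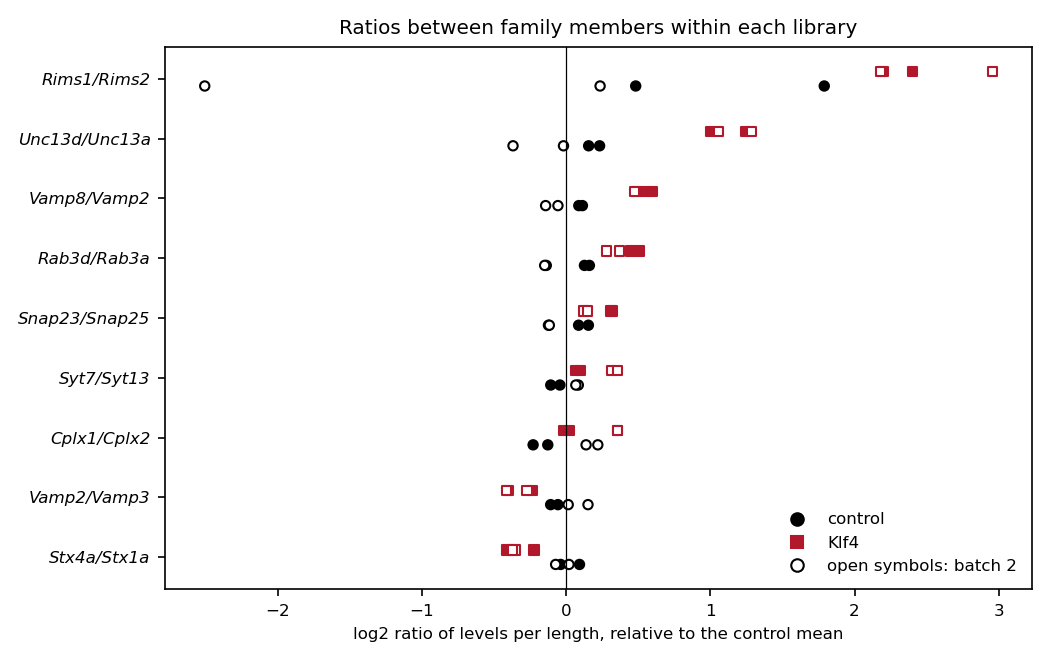
Log2 ratio of paralogs per length in each library, relative to the control mean, for 9 pairs (circles for control, squares for Klf4, open symbols for batch 2). The groups are separate in 6 pairs, from Rims1/Rims2 (log2 difference 2.43) to Vamp2/Vamp3 (-0.33), and overlap over all libraries, but not within a batch, in the other 3.

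The batches differed for many of these genes. The batch term passed in 23 of 58 members (39.7%, against 25.1% of all genes, edgeR), with 8 higher and 15 lower in batch 2. At an average log2 CPM of 6 or more it passed in 11 of 22 members and 1667 of all 4006 genes. Under 1 it passed in 2 of 4 members and 372 of 5396 genes. Stx11 (1.08), Rab3c (0.59) and Cplx1 (0.52) were higher in batch 2 on the log2 scale, while Syt12 (-0.63), Rab3b (-0.35) and Rims3 (-0.34) were lower. The effect of the plasmid had the same sign in both batches in all 28 called members, and in 6677 of the 6684 called among all genes. The calls came from these same libraries, so this agreement is not separate evidence for the members. A difference of the plasmid effect between batches passed in 0 of 58 members (edgeR interaction, 0.766% of all genes), and 8 of 58 had an unadjusted p under 0.05 (13.8%, against 10.6% of all genes). For Klf4 itself the effect was 6.79 in batch 1 and 7.16 in batch 2 (edgeR interaction adjusted p = 0.0057). Beside it the effects in batches 1 and 2 were 1.29 and 1.78 for Unc13d, 0.36 and 0.42 for Unc13a, 0.54 and 0.84 for Syt1, 0.56 and 1.14 for Stxbp6, and 0.55 and 0.46 for Stx1a.

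The 10 members left out of the test were at or near 0. Vamp9 had no count in any library. Syt8 had 0 counts in each control and 8, 5, 7 and 5 in Klf4 libraries, at least 1.99-fold higher against a floor of 3 counts per library. Rims4 had 0 counts in each control and 2, 4, 3 and 6 in Klf4 libraries, and Syt10 had 0 in each control and 2, 1, 4 and 1. Syt15 went from 1, 0, 0 and 0 counts to 9, 3, 3 and 11, and Syt6 from 0, 2, 0 and 0 to 6, 2, 14 and 9. These few reads lay mostly on the Klf4 side, as did the calls of all tested genes with an average log2 CPM under 1, of which 92.2% were rises. Cplx3, Cplx4 and Stx19 had 7 counts or fewer in every library, and Cplx4 had its counts mainly in control (7, 4, 0 and 0, against 1, 1, 0 and 0). The number of members with any count was 62, 62, 59 and 59 in control replicates 1 to 4 and 67, 65, 64 and 65 in the Klf4 libraries. The number of all genes with a count was higher in Klf4 libraries too, at 24509 to 25446 in control and 26414 to 27216 in Klf4 libraries.

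Genes that work beside the machinery were read from 7 lists by function. Of 100 such genes 97 were tested, 26 rose and 14 fell (together 41.2%, against 36.6% of all genes), with a median log2 fold change of -0.01. Of 18 genes of granule tethering and priming, among them the GTPase genes Rab27a, Rab27b and Rab37, 7 rose and 2 fell (median log2 fold change 0.21). Sytl1, a Rab27 effector, had 54, 67, 71 and 57 counts in control and 549, 430, 559 and 671 in Klf4 libraries, and rose from 1.29 ± 0.144 to 10.9 ± 1.35 CPM (edgeR adjusted p = 4.76e-16). Sytl2 had 0, 0, 0 and 2 counts in control and 59, 67, 63 and 94 in Klf4 libraries (edgeR adjusted p = 2.77e-10). Mlph, the melanophilin of melanosome transport, rose from 0.404 ± 0.053 to 2.11 ± 0.241 CPM. These effectors were low in control cells, and in each of them every Klf4 library lay above every control. Doc2a fell by 0.32 on the log2 scale and Rph3al fell by 0.14.

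Of 11 active-zone scaffold genes 4 rose and 3 fell. Pclo, or piccolo, fell from 279 ± 41.6 to 216 ± 15.7 CPM (log2 fold change -0.37, edgeR adjusted p = 0.000131), Bsn by -0.20 and Rimbp2 by -0.10, while Tspoap1 (1.79), Ppfia3 (0.28) and Erc1 (0.27) rose. Vesicle membrane proteins had 4 higher and 2 lower of 18: Syn2 (0.68), Scamp2 (0.28) and Syp (0.22) rose, and Sv2a (-0.20) and Syngr1 (-0.09) fell. Among further proteins with C2 domains, the calcium-binding fold of synaptotagmins, 7 of 10 rose and 2 fell (median log2 fold change 0.65). Together these were 90% of the list, against 36.6% of all genes, and Fer1l4 and Otof were at low level in control cells. Fer1l4 rose from 0.239 ± 0.0704 to 6.76 ± 0.816 CPM, Otof, or otoferlin, from 0.051 ± 0.0748 to 0.857 ± 0.218 CPM, and Esyt3 by 1.60 on the log2 scale, while Esyt1 and Fer1l6 each changed by -0.20. In the disassembly and chaperone list 1 of 11 rose (Sncg, 2.32) and 2 fell (Napg, -0.13, and Hspa8, -0.07). Hspa8 was the 1 called gene of these lists without the same sign in both batches, at 0.00 in batch 1 and -0.14 in batch 2. In the exocyst 2 of 12 rose (Exoc3l2, 1.34, and Exoc3l, 0.61, both at low level) and 1 fell (Exoc2, -0.13). Of 17 other SNARE-related genes of the endoplasmic reticulum, Golgi and endosomes, 1 rose (Ykt6, 0.09) and 2 fell (Bnip1, -0.15, and Vps33a, -0.10).

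Of the 68 members, 15 overlap an exon of another annotated gene, 14 of them on the opposite strand, and reads of both genes cannot be told apart where the counting ignored strand. Among called members the neighbours were low or moved less, with exceptions. Stx4a is among the 14. Rab3a, which fell, overlaps Mpv17l2, which rose by 0.17, and Stx18 overlaps the more abundant Nsg1, which itself changed by -0.09 (edgeR adjusted p = 0.013). The values of these members are uncertain to that extent. Unc13a overlaps Colgalt1, which did not pass (0.08).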

How the data were processed

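The 8 RNA-seq libraries of MIN6 cells (4 control, 4 Klf4) were compared. The deposited table holds the authors' raw read counts per gene, whose name says that reads were trimmed with cutadapt. FastQC, STAR, featureCounts, edgeR and the build mm10 are named in the submitters' processing notes. Versions, annotation and strand setting are not given in the sources used here. All 55536 pairs of identifier and symbol match GENCODE M21 (GRCm38), from which coordinates and exon lengths were taken.

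Counts were tested with edgeR 4.0.16 (R 4.3.3): filterByExpr with a minimum count of 10, TMM, a batch term as in the series' design text, quasi-likelihood test, Benjamini-Hochberg adjustment over 18266 genes, called at an adjusted p under 0.05. Totals were 45417853 to 52731176 counts and the biological coefficient of variation 4.08%. On simulated data with 17271 genes, the test called 38% of genes changed by 0.15 on the log2 scale, 58% at 0.25, 94% at 0.5 and 9 of 17071 unchanged genes. The simulation changed only 50 genes at each size, all at 1 CPM or more in control. In the data 36.6% of genes were called, so these rates do not carry over to them, nor to genes under 1 CPM. CPM used TMM-scaled totals, and CPM per kb is CPM per kilobase of merged exons. Alternatives were other scalings, filters and tools (DESeq2 1.42.0, limma 3.58.1), a GC and length offset, no batch term, a replicate block and leaving out each library.

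Same-numbered control and Klf4 libraries deviated together (correlations 0.61, 0.46, 0.57 and 0.52 over 10485 genes), and after removing batch means the values were -0.05 and 0.08, so the numbers were taken to pair the libraries through their batch. Genes named were core members fixed by symbol, the 8 called members of highest and of lowest fold change, and up to 3 companions per list and direction. The members and lists were chosen with earlier results of these data known. Some items are not reported here, although they remain in counts over all members.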

Additional observations from a re-analysis of the deposited data

Results flagged for a closer look

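In 4 of 92 groups of 4 libraries 1 library lay far from the other 3, by the gap to the nearest of them relative to the group's range (Dixon's test). Chance alone gives about 4.6 of 92, or 1 in 20. For Stx4a, control replicate 3 stood at 27.4 CPM and the other controls at 23.7 to 24.05. For Rab3a, Klf4 replicate 4 stood at 102.2 CPM and the others at 96.2 to 96.6. For Stxbp5, Klf4 replicate 3 stood at 69.9 CPM and the others at 74.0 to 74.6. For Rims1, Klf4 replicate 4 stood at 0.853 CPM and the others at 0.486 to 0.542.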

How the results depend on the processing

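Over 18 alternatives 19 to 33 members were called, and no called member changed sign. DESeq2, its size factors and limma-voom called the same 28. The fit with replicate number as a block also called the same 28 members, so pairing changed no call of a member. Without a batch term 4116 genes were called in all and 4 members fell, in place of 6684 and 10, and the 9 lost calls were Vamp4, Syt14, Snap25, Rims3, Stx4a, Stxbp2, Cplx2, Rab3c and Syt4. Scaling on genes of high expression lost Syt14, Snap25 and Cplx2, gained Snap23, Cplx1 and Snap29, and put the members' median at 0.0445. The GC and length offset lost Syt14, Snap25 and Stxbp4 (with the block also Stx4a) and gained 8, Stxbp5 (0.104), Syt13 and Snap23 among them. Without a filter Rims4, Syt6, Syt8, Syt15 and Stx16 were called too. Requiring 1 CPM in 4 libraries left Rims1 untested. Leaving out each library moved the median between -0.0425 (without control replicate 1) and 0.00877. Members near 0 changed sign: Rims2 ran from -0.0234 to 0.0235 and Stxbp5 from -0.00837 to 0.0292 and was -0.0124 within batch 2. Within batch 1, with 2 against 2, 10 named members lost their call, and within batch 2 Stx4a did; the causes were not tested. Each ratio call was lost when a Klf4 library was left out (adjusted p 0.0524 to 0.0898, 3 against 4, the cause was not tested): Rab3d/Rab3a ran from 0.349 to 0.452, Rims1/Rims2 1.60 to 3.03, Stx4a/Stx1a -0.380 to -0.310, Unc13d/Unc13a 1.02 to 1.22, Vamp2/Vamp3 -0.367 to -0.280 and Vamp8/Vamp2 0.480 to 0.565. In these pairs the groups stayed separate without a library, and the adjusted p also depends on the other pairs. Snap23/Snap25 ran from 0.184 to 0.276 and passed without control replicate 2. At this depth genes of a few counts, such as Rims1, are known least precisely.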
